A study of Homo sapiens with 6 samples.

Results

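The nuclear-encoded subunits of the mitochondrial respiratory chain were examined by RNA sequencing in 1 pair of human esophageal squamous cell carcinoma (ESCC) lines. Members were taken by gene symbol: the NDUF families of complex I, SDHA to SDHD of complex II, the UQCR genes and CYC1 of complex III, the COX4 to COX8 families of complex IV and the ATP5F1, ATP5M and ATP5P families of complex V. The rule found 84 genes among 58884 rows of the matrix, with 36 in complex I, 4 in complex II, 9 in complex III, 17 in complex IV and 18 in complex V. NDUFA4 carries a complex I symbol but is a subunit of cytochrome c oxidase, and it was counted in complex IV.

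KYSE450 is an ESCC line with wild-type NRF2. KEAP1null-KYSE450 is a monoclonal derivative made with CRISPR-Cas9 and a guide against exon 2 of KEAP1, the adaptor that targets the transcription factor NRF2 for degradation. Each line gave 3 libraries of total RNA from untreated cells grown in RPMI1640 medium with 10% fetal bovine serum and antibiotics. The KEAP1null line is 1 clone, so a difference that comes with cloning and a difference that comes with the loss of KEAP1 cannot be told apart. The sources used here do not say whether the 3 libraries of a line came from separate cultures, and the p-values measure only the spread between these libraries. The question for these genes is whether their mRNA differed between the parental line and the KEAP1-deficient clone.

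The respiratory chain carries electrons from NADH and succinate to oxygen and uses the energy to pump protons across the inner mitochondrial membrane. Complex I takes electrons from NADH, complex II from succinate, complex III passes them to cytochrome c and complex IV reduces oxygen, while complex V is the ATP synthase that the returning protons drive. Complexes I, III, IV and V combine a few subunits encoded in mitochondrial DNA with many encoded in the nucleus, and complex II is wholly nuclear-encoded. Subunits are described here as core, where they carry the catalytic groups, the nucleotide sites or the rotor, or as accessory, where they surround that core.

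KEAP1 mRNA measured 5760, 5226 and 5146 normalized counts in KYSE450 and 5737, 4906 and 5317 in KEAP1null-KYSE450, and the groups overlapped. Its log2 fold change was -0.02 with an SE of 0.10 (limma, adjusted p = 0.90). Its level thus does not tell the lines apart, and an edit cannot be read from a count per gene. Of the 6 libraries, 4 allowed the reads behind the values to be recovered, and these held 53027359 to 61543442 reads. All 7 squamous markers were expressed, with a summed level of 372004 to 511734 normalized counts in KYSE450 and 570841 to 714689 in KEAP1null-KYSE450. KRT5 was called higher and the other 6 lower. Fibroblast markers summed to 608 to 847 and 349 to 436 normalized counts, endothelial markers to 57.8 to 73.8 and 41.5 to 68.6 with PECAM1 at 0, and immune markers to at most 15.2. The part of these markers in the results was not tested, and in bulk RNA a change in the kinds of cells and a change in RNA per cell cannot be told apart.

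Of the 84 subunits, 77 had a mean of at least 10 normalized counts and were tested. With limma and a Benjamini-Hochberg adjusted p under 0.05, 20 were higher in KEAP1null-KYSE450, 10 were lower and 47 were not called. Among all 16701 genes tested, 24.3% were called higher and 25.5% lower, against 26.0% and 13% of the subunits. Most subunits are abundant, and the background differs at that level: of the 7758 genes whose mean reached 1000, 16.0% were called higher and 37.5% lower. Of the 70 subunits at that level, 19 were higher and 8 lower, or 27.1% and 11.4%. As reported, the share called lower was below both backgrounds. The share called higher was near that of all genes and above that of the abundant genes. It fell below that of all genes in some alternatives, given below. No test of these differences was made. Adding the study's cutoff of 1 on the log2 scale left 1 subunit higher, ATP5MC1, and 1 lower, NDUFV2, where 12.2% and 5.98% of all genes passed. The median log2 fold change was 0.13 over the tested subunits, 0.00 over all genes tested and -0.15 over the abundant ones. In 16 subunits all KEAP1null-KYSE450 libraries lay above all KYSE450 libraries and in 8 they lay below, beside 28.4% and 29.3% of all genes.

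**Figure D1:**
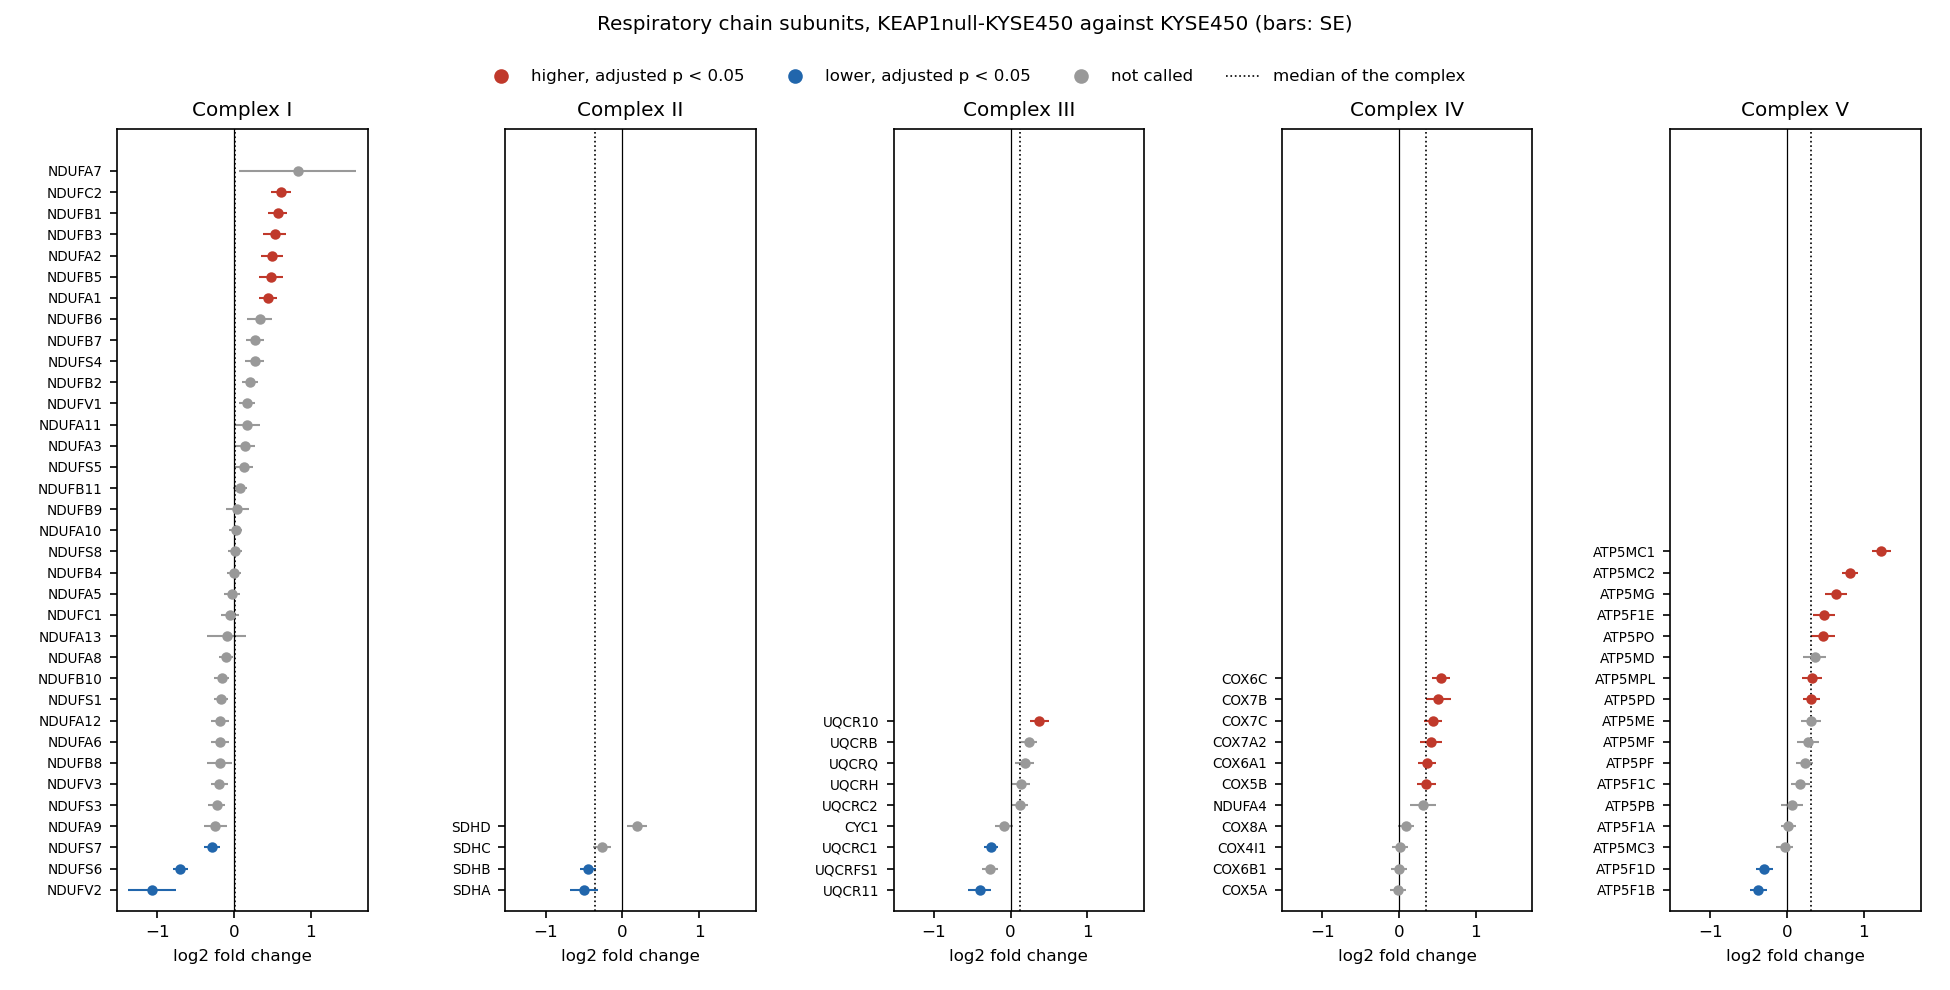
Log2 fold change (x axis) of 76 of the 77 tested subunits, KEAP1null-KYSE450 against KYSE450, by complex, with SE bars. Red points were called higher, blue lower and grey not called (limma, adjusted p under 0.05), and the dotted line is the median of the complex, which runs from -0.35 in complex II to 0.36 in complex IV.

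In limma, complexes IV and V had larger shares of higher calls than complexes I, II and III. Complex IV had 6 of 11 tested subunits higher and 0 lower in limma (0 also at an unadjusted p under 0.05), with a median of 0.36 on the log2 scale. Complex V had 7 of 17 higher and 2 lower with a median of 0.31. Complex II had 0 of 4 higher (0 also unadjusted) and 2 lower with a median of -0.35. DESeq2 and edgeR were run on the 4 libraries with recovered reads. Each called 1 subunit of complex IV and 3 of complex V higher and 0 of complex III in either direction. For complex II they called 0 higher and 1 or 0 lower. Of all genes, DESeq2 called 15.7% higher and 16.4% lower, and edgeR 17.4% and 14.8%. The higher share of complex IV was below these, and that of complex V was near them. In edgeR complex I had 4 of 36 higher, a share not below that of complex IV. Complex IV had 3 subunits higher and 2 lower with the length and GC trend removed. It had 2 higher without KEAP1null-KYSE450 library 2 or 3, and 3 higher without KYSE450 library 1. These higher shares were near those of all genes in the same settings, given below. Complex I had 6 of 36 higher and 4 lower with a median of 0.02, and complex III had 1 of 9 higher and 2 lower with a median of 0.12. Over 18 alternative settings the median stayed above 0 for complexes IV and V and below 0 for complex II. It ranged from -0.06 to 0.17 for complex I and from -0.05 to 0.31 for complex III, so neither of these had a fixed sign. By class, 3 of 21 core subunits were higher and 7 lower, with a median of -0.17. Of 56 accessory subunits, 17 were higher and 3 lower, with a median of 0.20. These were 14.3% and 33.3% of the core and 30.4% and 5.36% of the accessory subunits. Beside them stood 24.3% and 25.5% of all genes and 16.0% and 37.5% of the abundant genes. The lower core calls include NDUFV2 and SDHA, whose levels are uncertain. Over the alternatives the accessory median stayed between 0.06 and 0.34, while the core median ran from -0.23 to 0.02, turning positive after quantile normalization. The counts by class moved more than the medians. Accessory subunits had 9 higher and 7 lower calls without KYSE450 library 1 and 11 and 8 with the length and GC trend removed. Without KEAP1null-KYSE450 library 2 or 3 they had 6 and 1. Of all genes, 24.1% were higher and 24.1% lower without KYSE450 library 1, and 26.4% and 26.7% with those trends removed. The shares were 18.9% and 19.6% without KEAP1null-KYSE450 library 2, and 19.3% and 21.0% without its library 3. In all these settings the accessory share called higher was below that of all genes. Accessory calls numbered 24 and 2 without KEAP1null-KYSE450 library 1, 15 and 1 without KYSE450 library 2 and 25 and 1 without KYSE450 library 3. The shares of all genes were 22.6% and 25.4%, 21.7% and 21.7%, and 23.1% and 23.6%, in that order. Here the accessory share called higher was above that of all genes. Core subunits had 5 and 4 after quantile normalization, 2 and 2 in edgeR and 3 and 3 without KYSE450 library 2. Without KEAP1null-KYSE450 library 2 they had 2 and 3, and without its library 3 they had 2 and 6. Of all genes, 22.5% were higher and 23.5% lower after quantile normalization. Among these settings, the core share called lower was above that of all genes only without KEAP1null-KYSE450 library 3. The differences between complexes and between these classes were not tested.

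The sizes of these counts rested on single libraries. In KYSE450, library 1 held the lowest value for 67 of the 77 subunits, beside 36.5% of all genes, and in KEAP1null-KYSE450 library 1 held the lowest for 62 of 77, beside 34.2%. Library numbers follow the column order and pair nothing across the lines. The subunits together made up 1.16%, 1.37% and 1.38% of the normalized counts in KYSE450 and 1.26%, 1.39% and 1.43% in KEAP1null-KYSE450. Without library 1 of both lines, which was tried after seeing the values, 30 subunits were higher and 15 lower. Of all genes, 25.7% were higher in that setting and 28.2% lower. Complex I then had 10 higher and 8 lower, complex II 0 and 3, complex III 2 and 3, complex IV 7 and 0, and complex V 11 and 1. The count fell to 8 higher and 4 lower without KEAP1null-KYSE450 library 2 and to 8 and 7 without its library 3. Of all genes, 18.9% were higher and 19.6% lower without that library 2, and 19.3% and 21.0% without that library 3. The share of subunits called higher was below that of all genes in both settings. The count of subunits was 27 and 7 without KEAP1null-KYSE450 library 1 and 13 and 15 without KYSE450 library 1. It was 18 and 4 without KYSE450 library 2 and 28 and 6 without KYSE450 library 3. In these settings 21.7% to 24.1% of all genes were higher and 21.7% to 25.4% lower.

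The scale also moved the balance of calls. Higher calls were 66.7% of all subunit calls as reported, 80.0% (24 higher, 6 lower) when every library was set to the same total and 87.2% (34 higher, 5 lower) after quantile normalization. They were 48.4% (15 higher, 16 lower) when trends with gene length and GC content were removed. Of all genes, 25.7%, 22.5% and 26.4% were called higher in these alternatives and 23.4%, 23.5% and 26.7% lower, in that order. Of the 30 calls, 12 held with each of the 6 libraries left out in turn, and 18 did not. All 18 were lost without KEAP1null-KYSE450 library 2, with adjusted p from 0.050 to 0.18 in limma, and 16 were lost without its library 3. Without KYSE450 libraries 1, 2 and 3, the number lost was 10, 8 and 4, and without KEAP1null-KYSE450 library 1 it was 3. Among the calls that held in all 18 alternatives were NDUFS6, which was lower, and NDUFB1, COX6C, ATP5MC1, ATP5MC2 and ATP5MG, all higher.

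**Figure D2:**
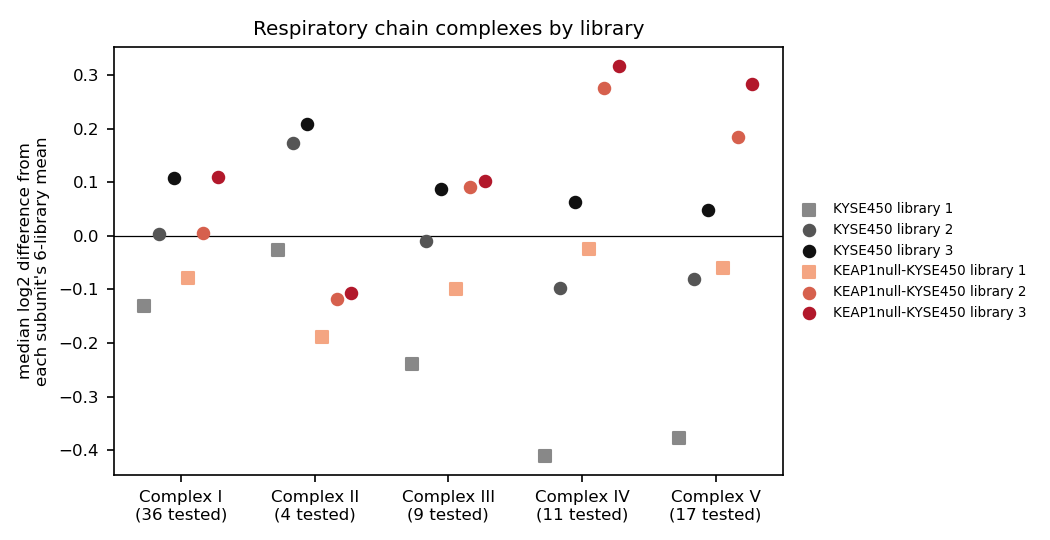
Median over the tested subunits of each complex (x axis) of the log2 difference between a library and the subunit's own mean over the 6 libraries (y axis), with library 1 of each line as a square. Within every complex, library 1 is the lowest of its line, and in complexes IV and V the KYSE450 library 1 lies at -0.41 and -0.38.

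The ATP synthase of complex V gave the largest higher call, in a gene family that encodes its rotor ring. The membrane ring of the enzyme is built of identical c subunits, which ATP5MC1, ATP5MC2 and ATP5MC3 all encode. The 3 precursors differ in their import sequences, while the last 77 codons before the stop translate to the same residues, as read from hg38 with the gencode v44 annotation. Over the 231 bases of these codons, ATP5MC1 and ATP5MC2 differed at 27 bases, and ATP5MC3 differed from each of the other two at 46. The last 120 coding bases before the stop are shown, 5′ to 3′ on the coding strand, because the bases that differ are what allows reads of this stretch to be assigned. Capitals mark every position at which at least 1 of the other two genes has another base.
ATP5MC1: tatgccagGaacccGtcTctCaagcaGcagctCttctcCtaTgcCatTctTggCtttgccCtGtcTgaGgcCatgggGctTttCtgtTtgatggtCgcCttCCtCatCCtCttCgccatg
ATP5MC2: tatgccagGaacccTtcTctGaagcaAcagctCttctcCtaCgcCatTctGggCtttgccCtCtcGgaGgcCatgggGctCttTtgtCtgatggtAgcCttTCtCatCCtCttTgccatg
ATP5MC3: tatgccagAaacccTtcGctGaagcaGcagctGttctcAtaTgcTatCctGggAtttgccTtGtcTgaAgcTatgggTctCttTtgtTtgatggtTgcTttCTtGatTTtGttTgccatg

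ATP5MC1 lies on chromosome 17 of hg38 from 48892765 to 48895871. It measured 3156, 3855 and 4362 normalized counts in KYSE450 and 7731, 9259 and 9550 in KEAP1null-KYSE450. The lowest library of the clone was above the highest library of the parental line. The means were 3791 ± 605 and 8847 ± 977 (SD, n = 3), and the log2 fold change was 1.23 with an SE of 0.13 (limma, adjusted p = 6.9e-06).

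ATP5MC2, on chromosome 12 from 53632726 to 53677408, measured 6074, 6849 and 6907 normalized counts in KYSE450 and 10575, 12178 and 12249 in KEAP1null-KYSE450. Here too the groups did not overlap. Its log2 fold change was 0.82 with an SE of 0.10 (limma, adjusted p = 2.6e-05). ATP5MC3, on chromosome 2 from 175176258 to 175181710, measured 20524, 24041 and 26025 normalized counts in KYSE450 and 21206, 22921 and 24850 in KEAP1null-KYSE450. All 3 values of the clone fell inside the parental range. Its log2 fold change was -0.03 with an SE of 0.11 (limma, adjusted p = 0.84), and the sign turned positive in 4 of 18 alternatives.

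The 3 genes summed to 33931 ± 3835 normalized counts in KYSE450 and 43507 ± 3644 in KEAP1null-KYSE450 (SD, n = 3), and the libraries of the lines did not overlap. On normalized counts per kb of annotated exons, ATP5MC1 was 15.7% ± 0.728 of the summed c-subunit mRNA in KYSE450 and 27.5% ± 0.827 in KEAP1null-KYSE450 (SD, n = 3). On the same scale ATP5MC2 went from 18.5% ± 0.951 to 24.3% ± 0.520 and ATP5MC3 from 65.8% ± 0.234 to 48.2% ± 1.09. The exact permutation p was 0.10 for each of these 4 quantities, two-sided, which is the smallest that 3 against 3 libraries allow. A share is taken within a library and so is free of the library's scale. With the length of the main transcript in place of all annotated exons, which was tried after seeing the values, the gain of ATP5MC1 was 10.3 percentage points instead of 11.8. That of ATP5MC2 was 3.75 instead of 5.85, and the change of ATP5MC3 was -14.1 instead of -17.6. ATP5MC3 was the most abundant of the 3 in both lines per kb of annotated exons but the least abundant in KEAP1null-KYSE450 per kb of the main transcript, so their order by level depends on the length used.

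**Figure D3:**
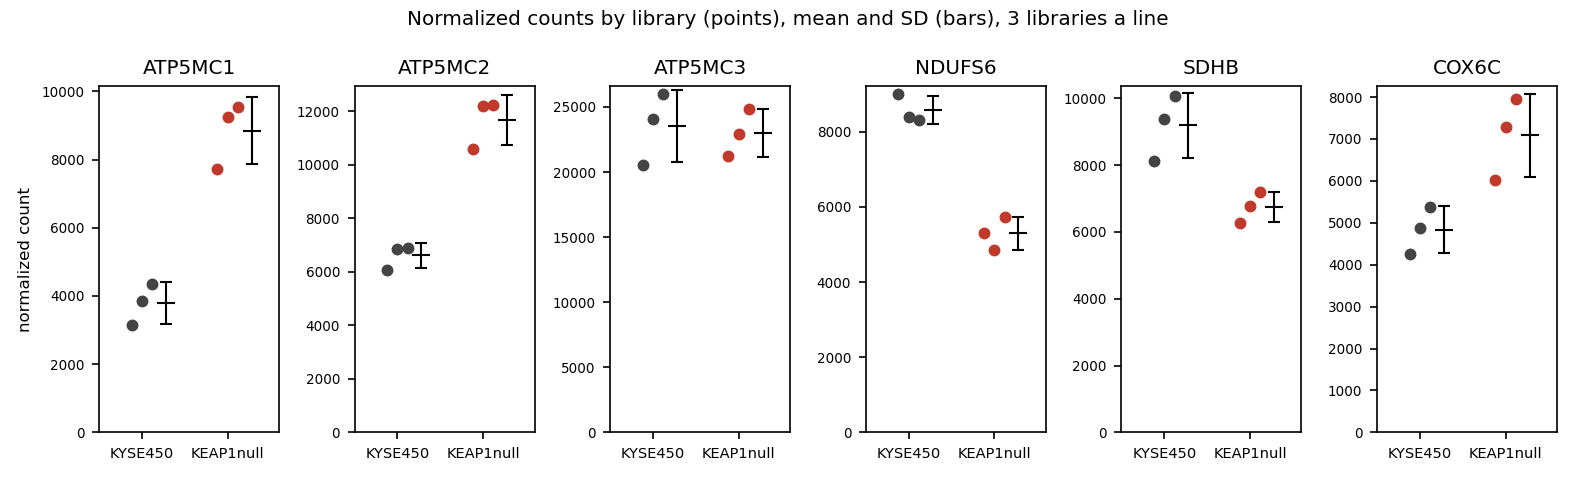
Normalized counts (y axis, from 0) of 6 subunits in the 3 KYSE450 libraries (dark points) and the 3 KEAP1null-KYSE450 libraries (red points), with mean and SD. The libraries of the lines are apart for ATP5MC1, ATP5MC2, NDUFS6, SDHB and COX6C, and they overlap for ATP5MC3.

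The rest of the membrane part of complex V moved less. ATP5MG, subunit g at the dimer interface, measured 1569, 2263 and 2428 normalized counts in KYSE450 and 2885, 3301 and 3402 in KEAP1null-KYSE450. The groups did not overlap, and the log2 fold change was 0.64 with an SE of 0.15 (limma, adjusted p = 0.0033). ATP5MPL, a small proteolipid subunit, was the call nearest the threshold, at 0.33 (adjusted p = 0.0498). The neighbouring ATP5MD, ATP5ME and ATP5MF had log2 fold changes of 0.36, 0.31 and 0.27 and adjusted p of 0.061, 0.059 and 0.14, and were not called. In the peripheral stalk, which holds the catalytic head still, ATP5PD at 0.31 (adjusted p = 0.034) and ATP5PO at 0.47 (adjusted p = 0.027) were called higher, while ATP5PF at 0.23 and ATP5PB at 0.06 were not called. Of the exons of ATP5PO, 63.8% overlap another gene on the same strand, AP000311.1, whose means were 1.36 and 5.32 normalized counts. ATP5MPL, ATP5PD and ATP5PO lost their calls without KEAP1null-KYSE450 library 2 or 3 and without KYSE450 library 1, with adjusted p from 0.077 to 0.18 in limma, and ATP5MPL and ATP5PD also without KYSE450 library 2 (0.073 and 0.057). The call of ATP5MG held with each library left out.

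The catalytic head, F1, did not move one way. ATP5F1B, the catalytic beta subunit, measured 126159, 134083 and 131197 normalized counts in KYSE450 and 106037, 96371 and 99703 in KEAP1null-KYSE450. Every library of the clone lay below every parental library, with a log2 fold change of -0.37 and an SE of 0.11 (limma, adjusted p = 0.014). ATP5F1A, the alpha subunit that alternates with beta in the head, was at 28784 ± 1975 and 29081 ± 193 normalized counts (SD, n = 3), a log2 fold change of 0.02. In the central stalk, ATP5F1D was lower at -0.30 (adjusted p = 0.045) and ATP5F1E was higher at 0.48 (adjusted p = 0.013), while ATP5F1C was at 0.17 (adjusted p = 0.27). The libraries overlapped for both ATP5F1D and ATP5F1E. The call of ATP5F1B was lost without KEAP1null-KYSE450 library 2 or 3 or KYSE450 library 2, with adjusted p from 0.061 to 0.071 in limma. That of ATP5F1E was lost without KEAP1null-KYSE450 library 2 or 3 (0.068 and 0.062). That of ATP5F1D was lost without every library but KEAP1null-KYSE450 library 3, with adjusted p from 0.058 to 0.18. ATP5F1B was also the most abundant subunit per kb of annotated exons, at 58302 in KYSE450 and 44997 in KEAP1null-KYSE450, followed by NDUFS5 at 20606 and 22459. Its first place held with the length of the main transcript.

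The lower calls of complex I lay in the arm that takes up and passes on electrons. NDUFS6, a zinc-binding accessory subunit needed late in assembly, lies on chromosome 5 from 1801407 to 1816048. It measured 9012, 8401 and 8318 normalized counts in KYSE450 and 5296, 4861 and 5743 in KEAP1null-KYSE450. The groups did not overlap, and the log2 fold change was -0.70 with an SE of 0.09 (limma, adjusted p = 7.0e-05). NDUFS7, a core subunit with an iron-sulfur cluster next to the quinone pocket, was lower at -0.28 (adjusted p = 0.035). It lost this call without KEAP1null-KYSE450 libraries 1 or 2 and without KYSE450 libraries 2 or 3, with adjusted p from 0.073 to 0.17 in limma.

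NDUFV2 had the lowest fold change, but from few counts. It measured 86.6, 55.6 and 72.7 normalized counts in KYSE450 and 25.8, 39.8 and 35.3 in KEAP1null-KYSE450, a log2 fold change of -1.07 with an SE of 0.31 (limma, adjusted p = 0.012). Another gene annotated on the same strand, AP005263.1, overlaps 89.96% of its exons and was listed at 0, and the pseudogene NDUFV2P1 held 442 ± 61.5 and 531 ± 81.3 normalized counts (SD, n = 3). NDUFV2P1 had a log2 fold change of 0.26 (adjusted p = 0.19). The values of NDUFV2 are therefore uncertain. Of the core subunits that were not called, NDUFV1, which binds FMN, was at 0.17, NDUFS1 at -0.17, NDUFS3 at -0.23 and NDUFS8 at 0.01. NDUFS8 turned negative in 4 of the 18 alternatives and NDUFS1 positive in 1. The 26 subunits of complex I that were not called lay between -0.24 in NDUFA9 and 0.83 in NDUFA7, whose SE was 0.76. NDUFA7 had means of only 8.75 normalized counts in KYSE450 and 12.2 in KEAP1null-KYSE450. Another gene on the same strand overlaps 77.9% of the main transcript of NDUFA7, 83.9% of NDUFA13, 72.0% of NDUFB8 and 68.2% of NDUFA11. The levels of NDUFA7, NDUFA13, NDUFB8 and NDUFA11 are therefore uncertain too.

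The higher calls of complex I were all accessory subunits, mostly small ones of the membrane arm. NDUFC2 measured 655, 698 and 862 normalized counts in KYSE450 and 1019, 1132 and 1235 in KEAP1null-KYSE450. The libraries did not overlap, and the log2 fold change was 0.62 with an SE of 0.13 (limma, adjusted p = 0.0020). NDUFB1 measured 1216, 1333 and 1481 normalized counts in KYSE450 and 1740, 2067 and 2175 in KEAP1null-KYSE450. Its groups were apart as well, with a log2 fold change of 0.57 and an SE of 0.12 (limma, adjusted p = 0.0016).

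NDUFB3 followed at 0.53 (adjusted p = 0.0099), NDUFA2 at 0.49 (adjusted p = 0.015), NDUFB5 at 0.48 (adjusted p = 0.025) and NDUFA1 at 0.45 (adjusted p = 0.0064). By symbol family, 3 of 11 NDUFB genes were higher and 0 lower, and 2 of 12 NDUFA genes were higher and 0 lower in limma. The higher shares, 27.3% and 16.7%, were near or below the 24.3% of all genes, of which 25.5% were lower. At an unadjusted p under 0.05 neither family had a lower gene (0 of 11 and 0 of 12), and DESeq2 and edgeR called 0 lower there. Lower calls did appear in other settings: 3 NDUFA and 1 NDUFB genes without KYSE450 library 1, 2 of each with the length and GC trend removed, and 2 and 1 without library 1 of both lines. Higher calls fell to 1 in each family without KEAP1null-KYSE450 library 2 or 3, and those of NDUFB numbered 5 without KEAP1null-KYSE450 library 1 or KYSE450 library 3. The medians were 0.21 and -0.0008, and over the alternatives they ran from 0.06 to 0.33 for NDUFB and from -0.10 to 0.06 for NDUFA. The call of NDUFA1 and NDUFC2 held with each library left out, while NDUFA2, NDUFB3 and NDUFB5 lost theirs without KEAP1null-KYSE450 library 2 or 3, with adjusted p of 0.050 to 0.10 in limma, and NDUFB5 also without KYSE450 library 1 (0.063). Over all 18 alternatives, NDUFA1 and NDUFC2 each kept the call in 17, and the log2 fold change of NDUFA1 went as low as 0.089.

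Complex II, succinate dehydrogenase, links the respiratory chain to the tricarboxylic acid cycle. SDHB, the iron-sulfur subunit, measured 8129, 9391 and 10061 normalized counts in KYSE450 and 6283, 6773 and 7200 in KEAP1null-KYSE450. All libraries of the clone lay below the parental ones, with a log2 fold change of -0.44 and an SE of 0.10 (limma, adjusted p = 0.0034). The SDHB call held in 16 of the 18 alternatives and was lost in edgeR. SDHA, the flavoprotein that oxidizes succinate, measured 926, 741 and 723 normalized counts in KYSE450 and 736, 431 and 555 in KEAP1null-KYSE450. The groups overlapped, and the log2 fold change was -0.50 with an SE of 0.18 (limma, adjusted p = 0.036). The SDHA call was lost without KEAP1null-KYSE450 libraries 2 or 3 and without KYSE450 libraries 1 or 2, with adjusted p from 0.056 to 0.18 in limma.

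SDHA shares sequence with copies that held counts of the same order as the gene itself. The pseudogene SDHAP1 held 799 ± 21.1 and 857 ± 184 normalized counts and SDHAP3 held 264 ± 37.1 and 359 ± 44.2 (SD, n = 3). SDHAP1 had a log2 fold change of 0.08 (adjusted p = 0.69) and SDHAP3 of 0.44 (adjusted p = 0.040). Another annotated gene overlaps 69.4% of the SDHA exons on the same strand, so the level of SDHA is uncertain. Both membrane anchors were not called: SDHC measured 14707 ± 2045 and 12231 ± 1135 normalized counts (SD, n = 3), a log2 fold change of -0.26 (limma, adjusted p = 0.081), and SDHD 6473 ± 1107 and 7350 ± 824, a log2 fold change of 0.19 (limma, adjusted p = 0.24).

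The calls of complex III went both ways. UQCRC1, a large matrix-side subunit counted here as accessory, measured 22755, 23810 and 22469 normalized counts in KYSE450 and 20175, 18496 and 19197 in KEAP1null-KYSE450. The groups did not overlap, and the log2 fold change was -0.25 with an SE of 0.09 (limma, adjusted p = 0.033). Its partner UQCRC2 was at 0.12 (adjusted p = 0.37). UQCR11 was lower at -0.40 (adjusted p = 0.042) and UQCR10, another small subunit, was higher at 0.38 (adjusted p = 0.025). The libraries overlapped for UQCR11 and did not for UQCR10. Of the catalytic subunits, CYC1, the cytochrome c1, was at -0.09 (adjusted p = 0.56) and UQCRFS1, the Rieske iron-sulfur protein, was at -0.27, just outside the threshold with an adjusted p of 0.054. The small subunits UQCRB, UQCRQ and UQCRH were at 0.24, 0.18 and 0.14 and were not called. All 3 calls of complex III were lost without KEAP1null-KYSE450 library 2 or 3: the adjusted p without library 2 was 0.082 for UQCR10, 0.081 for UQCR11 and 0.13 for UQCRC1 in limma, and without library 3 it was 0.11, 0.051 and 0.099. UQCR10 lost its call also without KYSE450 library 1 (0.066), UQCRC1 also without KYSE450 library 2 or 3 (0.13 and 0.050), and UQCR11 also without those libraries or KEAP1null-KYSE450 library 1 (0.087, 0.18 and 0.14).

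In complex IV, cytochrome c oxidase, the catalytic subunits come from mitochondrial DNA and every nuclear-encoded subunit is accessory. COX6C measured 4263, 4869 and 5380 normalized counts in KYSE450 and 6011, 7276 and 7962 in KEAP1null-KYSE450. The groups did not overlap, and the log2 fold change was 0.55 with an SE of 0.12 (limma, adjusted p = 0.0024). COX7C measured 10600, 12841 and 13989 normalized counts in KYSE450 and 15021, 17553 and 18266 in KEAP1null-KYSE450. It was also without overlap, at a log2 fold change of 0.45 with an SE of 0.12 (limma, adjusted p = 0.0075). COX7B at 0.52 (adjusted p = 0.020), COX7A2 at 0.42 (adjusted p = 0.026), COX6A1 at 0.37 (adjusted p = 0.019) and COX5B at 0.36 (adjusted p = 0.028) were the other higher calls.

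The 4 of these other than COX6C and COX7C lost the call without KEAP1null-KYSE450 library 2 or 3, with adjusted p from 0.066 to 0.12 in limma. COX7B, COX7A2 and COX5B lost it also without KYSE450 library 1, with adjusted p of 0.050, 0.071 and 0.077. COX6C kept its call in all 18 alternatives, while COX7C kept it in 16 and was not called in DESeq2 or edgeR. The subunits that join the complex early were not called, with COX4I1 at 0.02 and COX5A at -0.01. COX6B1 stood at 0.00 (adjusted p = 0.998), COX8A at 0.10 and NDUFA4 at 0.32 (adjusted p = 0.14). COX4I1 and COX6B1 changed sign in 3 and 4 of the 18 alternatives.

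Several complex IV subunits exist as isoforms made in different tissues. In every pair the widely expressed form was read in these cells and the other form was at or near 0. COX4I2, COX6A2, COX7A1 and COX7B2 were at 0 in all 6 libraries, which allows up to 3 reads, or 2.77 to 3.21 normalized counts in the 4 libraries with recovered reads, for counting error only. COX6B2 measured 1.07, 2.02 and 2.80 normalized counts in KYSE450 and 0, 0 and 1.01 in KEAP1null-KYSE450, and COX8C reached at most 2.02. These values lie at or under the floor, and no fold is given. ATP5MGL, a copy of ATP5MG, measured 5.35, 0 and 0.932 in KYSE450 and 0, 1.02 and 0 in KEAP1null-KYSE450. These 7 genes are the members that were not tested.

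Position on the chromosome was compared with the fold changes of nearby genes. For 76 subunits, at least 5 other tested genes with a mean of at least 100 lay within 2 Mb. Pearson's r between the log2 fold change of the subunit and the median of its neighbours was 0.18 over these 76 genes, given as a description since genes are no replicates. SDHC lies on chromosome 1, and its 29 neighbours had a median of -0.71, with 21 of them called lower. NDUFS7, UQCR11 and ATP5F1D, 3 of the 10 lower calls, lie together on chromosome 19 between 1241746 and 1605473. Their 73, 77 and 72 neighbours, many of them shared, had medians of -0.34, -0.34 and -0.35. By contrast, the neighbours of NDUFS6 had a median of -0.06, those of SDHB -0.21, those of ATP5MC1 -0.10 and those of ATP5MC2 0.01. The part of the neighbourhood in these calls was not tested.

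The promoters were searched for the antioxidant response element that NRF2 binds, written TGACNNNGC, and for 3 motifs known from respiratory genes. These were GCGCA and GCGC with any 1 base between them for nuclear respiratory factor 1, AAGATGGCG for YY1 and CCGGAAG for the ETS factors such as GABP. Both strands were read from 250 bases before to 50 after the start site, in the first promoter RefSeq lists for a gene on GRCh38.p14, and 65 of the 84 subunits had one. The antioxidant response element was in 10 of these 65, or 15.4%, beside 13.6% of 27305 promoters. It was in 2 of 16 subunits called higher, 3 of 7 called lower and 5 of 38 not called. The other motifs were more frequent in subunits than in all promoters: 24.6% against 6.28% for nuclear respiratory factor 1, 12.3% against 1.85% for YY1 and 29.2% against 10.7% for ETS. The YY1 letters were in 3 of 7 subunits called lower and 0 of 16 called higher.

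The 5 matches to the antioxidant response element in called subunits are shown as windows of 30 bases on the strand of the gene, with the match in capitals, since this is the element through which NRF2 acts. In all but NDUFA2 the match is on the opposite strand, so that the capitals read as the reverse complement of the motif.
NDUFS6, lower, chr5:1801382-1801411, plus strand: gggacgttgcGCCGGGTCAaaggccagcgg
UQCR11, lower, chr19:1605437-1605466, minus strand: gcgcagtgtaGCCGGGTCAgctggacaggg
UQCRC1, lower, chr3:48609767-48609796, minus strand: actggcggcaGCGCGGTCAgagccagtcag
NDUFA1, higher, chrX:119871844-119871873, plus strand: gagaggcgaaGCCAGGTCAcctttcaagga
NDUFA2, higher, chr5:140647723-140647752, minus strand: gcaaagaaatTGACCTCGCagcggtcctac
Relative to the first transcribed base, the matches begin at -15 in NDUFS6, 7 in UQCR11, -140 in UQCRC1, 23 in NDUFA1 and -112 in NDUFA2. The promoters given for ATP5MC1, ATP5MC2 and NDUFB1 hold none of the 4 motifs in this window. A match is a run of letters and does not show binding.

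The genes that work with the subunits were described from lists of the same kind. All 13 protein-coding genes of mitochondrial DNA were called higher in limma, beside 24.3% of all genes and 16.0% of the abundant ones. Their median log2 fold change was 0.98 (0.70 to 1.17 over the alternatives), and edgeR called 12 of them. The lowest was MT-CO2 at 0.65 and the highest MT-ND6, the light-strand gene, at 1.59. MT-ND6 measured 622, 641 and 880 normalized counts in KYSE450 and 1915, 2109 and 2391 in KEAP1null-KYSE450. No source used here says that reads were counted by strand, so reads of MT-ND6 and of the opposite strand cannot be told apart, and the overlapping MT-ATP8 (1.15) and MT-ATP6 share reads. The mitochondrial genes made up 2.04%, 2.07% and 2.83% of counts in KYSE450 and 4.41%, 3.92% and 4.65% in KEAP1null-KYSE450. The tested nuclear-encoded subunits had a median of 0.13 beside this 0.98.

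**Figure D4:**
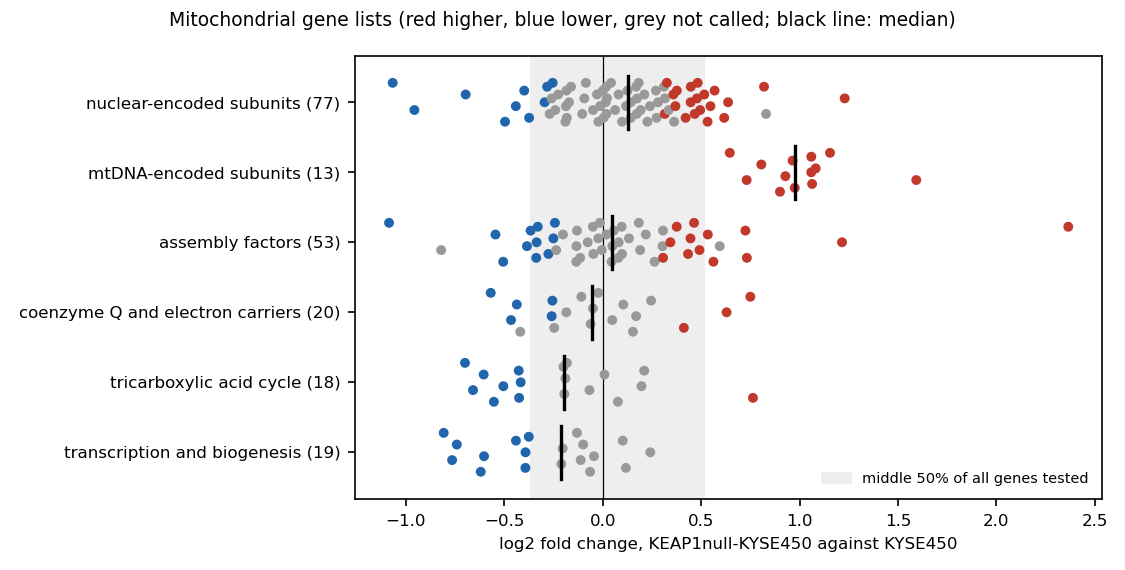
Log2 fold change (x axis) of the tested genes of 6 mitochondrial lists, with red called higher, blue lower and grey not called, a black line at each median and a grey band for the middle 50% of all genes tested (-0.37 to 0.51). The medians are 0.13 for the nuclear-encoded subunits and 0.98 for the mtDNA-encoded subunits, and they lie below 0 for the tricarboxylic acid cycle (-0.20) and for transcription and biogenesis (-0.21).

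Of 53 assembly factors tested, 13 were higher and 11 lower, with a median of 0.05 (-0.06 to 0.19 over the alternatives). These shares, 24.5% and 20.8%, were near those of all genes, 24.3% and 25.5%. The split was 10 and 4 without KEAP1null-KYSE450 library 2, 8 and 6 without its library 3, 12 and 5 without KYSE450 library 2, 13 and 6 without KYSE450 library 3, and 8 and 3 in both DESeq2 and edgeR. COA6, a copper-handling factor of complex IV assembly, measured 1835, 2310 and 2503 normalized counts in KYSE450 and 9532, 11488 and 13255 in KEAP1null-KYSE450. No parental library came near the clone, and the log2 fold change was 2.36 with an SE of 0.14 (limma, adjusted p = 3.8e-08). SDHAF4, which helps to assemble SDHA with its flavin, was higher at 1.22 (adjusted p = 7.4e-05). PET117 at -1.09 (adjusted p = 0.017), from a mean of 63.4 normalized counts in KYSE450, and TACO1, a translational activator of MT-CO1, at -0.55 (adjusted p = 0.00062) were the lower calls with the largest changes.

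Of 20 genes of coenzyme Q synthesis and electron carriers, 3 were higher and 5 lower, with a median of -0.06 (-0.09 to 0.03). The shares were 15% and 25%, beside 24.3% and 25.5% of all genes. Lower calls fell to 2 without KEAP1null-KYSE450 library 2, KYSE450 library 2 or KYSE450 library 3, to 3 without KEAP1null-KYSE450 library 1 or 3, and to 1 in edgeR. ETFA, a subunit of the flavoprotein that feeds electrons from fatty acid oxidation, was at 0.75 (adjusted p = 0.00011) and COQ8A at 0.63 (adjusted p = 0.00061). PDSS1, which makes the tail of coenzyme Q, was at -0.57 (adjusted p = 0.00089) and AIFM1 at -0.47 (adjusted p = 0.0046). CYCS, cytochrome c itself, was lower at -0.44 (adjusted p = 0.018).

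Of 18 genes of the tricarboxylic acid cycle and pyruvate dehydrogenase, 1 was higher and 8 lower, with a median of -0.20 (-0.27 to -0.03). The share called lower was 44.4%, beside 25.5% of all genes and 37.5% of the abundant ones. Both subunits of the first enzyme of pyruvate dehydrogenase were called in opposite directions, with PDHB at 0.76 (adjusted p = 6.3e-05) and PDHA1 at -0.66 (adjusted p = 0.00020). FH, fumarate hydratase, which acts after succinate dehydrogenase, was lower at -0.70 (adjusted p = 5.3e-05).

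Of 19 tested genes of mitochondrial transcription and biogenesis, 0 were higher and 9 lower in limma (1 higher at an unadjusted p under 0.05, and 0 in DESeq2 or edgeR), with a median of -0.21 (-0.28 to -0.12). The share called lower was 47.4%, beside 25.5% of all genes and 37.5% of the abundant ones. In this list 1 gene was higher with the length and GC trend removed, after quantile normalization and without KYSE450 library 3. NRF1, nuclear respiratory factor 1, a transcription factor unrelated to NRF2, measured 1349, 1038 and 1287 normalized counts in KYSE450 and 726, 682 and 676 in KEAP1null-KYSE450. The groups did not overlap, with a log2 fold change of -0.81 and an SE of 0.12 (limma, adjusted p = 0.00019). PPARGC1B, a coactivator of these genes, was lower at -0.77 (adjusted p = 0.00075), and TFAM, which packages and transcribes mitochondrial DNA, was at 0.24 (adjusted p = 0.085).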

How the data were processed

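RNA sequencing of 3 KYSE450 and 3 KEAP1null-KYSE450 libraries was analysed from 1 deposited matrix. Per the study's methods, the authors aligned quality-filtered reads to hg38 with STAR (2.6.90c), counted them per gene with featureCounts (1.5.1) and normalized the matrix. The submitters' notes also name FastQC (0.11.5) and cutadapt (1.12), and they list mm10 beside hg38. The values deposited by the authors are normalized counts, a signal that, in the 4 libraries where it could be checked, is whole reads divided by a size factor. Whether the counting used strand or dropped reads that match several places is not given in the sources used here. The study names a RefSeq annotation, while the rows carry Ensembl identifiers. All 84 subunits matched gencode v44, which gave positions and lengths. The members, gene lists and tests were chosen with earlier results of these data known. Columns name the line but no replicate.

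Differences were tested with limma (version 3.58.1 under R 4.3.3, with a trended eBayes prior). The input was log2(normalized count + 1) for genes whose mean reached 10. The test was two-sided, with Benjamini-Hochberg adjustment over all 16701 genes. Since fold changes are on that scale, those of low genes are understated. Size factors are those of the authors. Whole reads were recovered for 4 libraries (100% of values within 0.1 of a whole read) and entered edgeR (4.0.16, quasi-likelihood) and DESeq2 (1.42.0) as alternatives. Their floor of 3 reads covers counting error only. Lists were described by counts and medians, with no test. The genes named were all core subunits, up to 3 subunits a direction in complexes I, III, IV and V, all 4 of complex II, the isoform pairs, up to 2 genes a direction of each other list, and KEAP1. The values of 1 subunit are not reported here, though it counts in totals and medians. All other genes were named after their values were seen. On simulated data with 200 changed genes among 16701, limma recovered 65 of 65, 67 of 67 and 68 of 68 genes changed by 0.6, 1 and 1.5 on the log2 scale, with 16 false calls. The simulation drew genes independently with the same dispersion for every gene and changed only genes with a mean over 100. It held no shift shared by the genes of a library and changed far fewer genes than were called here. Changes below 0.6 were not simulated, so this recovery does not measure how secure the calls reported here are.

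Alternatives tried were a pseudocount of 0.1 or 10, a minimum mean of 100 or none, the same total, median centring, quantile normalization, removal of trends with length and GC content, eBayes without trend, a cutoff of 1 on the log2 scale, each library left out, and, added once the values were known, library 1 of both lines left out and the length of the main transcript.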

Additional observations from a re-analysis of the deposited data

How the results depend on the processing

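No paired analysis was possible because the columns of the matrix carry no replicate numbers. As reported, 30 subunits were called (20 higher, 10 lower). DESeq2 on recovered reads called 12 (7 higher, 5 lower), edgeR on recovered reads 11 (8 higher, 3 lower), both from 4 libraries, and eBayes with no trend 13 (8 higher, 5 lower). The cutoff of 1 on the log2 scale left 2. Lower calls numbered 16 with the length and GC trend removed, 6 with no filter, 5 after quantile normalization and 6 at the same total. Higher calls numbered 34 after quantile normalization. With no filter, 14.2% of all genes were called lower. With 1 library left out, the calls numbered 12 to 34, the higher calls 8 to 28 and the lower calls 4 to 15. Calls over the other mitochondrial lists went from 66 to 41 with edgeR on recovered reads. Calls over all genes fell there too, from 24.3% higher and 25.5% lower to 17.4% and 14.8%. The cause of these shifts was not tested. The median over the subunits stayed between 0.03 and 0.26 in 18 alternatives.

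For 55 named genes, 846 of 988 values under the alternatives kept the sign and the side of the threshold, 100 lost a call, 16 gained one and 26 changed sign. Every sign change was in a gene not called as reported. With the length and GC trend removed, ATP5F1C went to -0.039, COX6B1 to -0.21 (adjusted p = 0.028), COX8A to -0.057 and KEAP1 to 0.16. Quantile normalization gave ATP5MC3 0.17, CYC1 0.13, NDUFS1 0.020 and KEAP1 0.14, and the same total gave ATP5MC3 0.0027 and KEAP1 0.016. NDUFS8 was -0.042 with DESeq2 and -0.015 with edgeR. Without library 1 of both lines, ATP5F1A was -0.040, COX4I1 -0.018 and COX6B1 -0.058. With 1 library left out, ATP5F1A ranged from -0.041 to 0.047, ATP5MC3 from -0.12 to 0.047, COX4I1 from -0.069 to 0.069, COX6B1 from -0.090 to 0.046, NDUFS8 from -0.044 to 0.050 and KEAP1 from -0.072 to 0.040.

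The part of depth in these results was not tested. Of the tested subunits, 70 had a mean of at least 1000 normalized counts, with an SE of 0.09 to 0.17 on the log2 scale.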

Other observations

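Of 8 tested genes that belong to the respiratory chain or regulate it but fall outside the naming rule, 3 were called higher and 0 lower in limma (1 lower at an unadjusted p under 0.05, and 0 in DESeq2 or edgeR), with a median log2 fold change of 0.02 (-0.10 to 0.18 over the alternatives). The share called higher was 37.5%, beside 24.3% of all genes, of which 25.5% were lower. In this list 1 gene was lower without KYSE450 library 1 and without library 1 of both lines. ATP5IF1, the inhibitor that stops ATP synthase from running in reverse, measured 4726, 5508 and 5733 normalized counts in KYSE450 and 8768, 9992 and 10638 in KEAP1null-KYSE450. The libraries did not overlap, and the log2 fold change was 0.88 with an SE of 0.11 (limma, adjusted p = 2.9e-05). DMAC2L, known as coupling factor B of the ATP synthase, measured 1042, 1422 and 1627 normalized counts in KYSE450 and 2043, 2218 and 2430 in KEAP1null-KYSE450. Its groups were apart too, at a log2 fold change of 0.73 with an SE of 0.15 (limma, adjusted p = 0.0014). COX7A2L, a supercomplex factor, was not called at -0.30 (adjusted p = 0.072).

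Pseudogenes of the subunits were common in the matrix but held few counts. For 45 of the subunits there were 159 rows named as their pseudogenes, and these rows summed to 0.252% of the summed mean of the subunits. Across the 77 tested subunits, Spearman's rho of the log2 fold change was -0.30 with the length of the main transcript, -0.17 with that of all annotated exons and -0.32 with GC content, given as descriptions across genes that are not independent replicates.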
